A study of Mus musculus with 8 samples.

Results

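The semaphorin, plexin, neuropilin, Eph receptor and ephrin genes were taken from the gene table by symbol: Sema3 to Sema7, Plxna to Plxnd, Nrp1 and Nrp2, Epha and Ephb, and Efna and Efnb. The choice by symbol gave 53 genes of 24860 listed, of which 45 had a mean of at least 1 FPKM over 8 mouse retina libraries. FPKM is a fragment count scaled by transcript length and by the fragments of the library, so levels can be set side by side between genes. The tested libraries are 4 labelled AAV2-shCX36, for which the label names a hairpin RNA, delivered by adeno-associated virus, that targets connexin 36, the main gap junction protein of retinal neurons. They are set against 4 labelled AAV2-scramble, in which the virus carries a control hairpin. The cell type on the labels is retinal ganglion cells. Different mice were used, but the mice behind each library are not named. Strain, age, sex, injury, time after injection and the promoter of the virus are not given in the sources used here.

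Semaphorins are guidance ligands. Class 3 members are secreted, classes 4 to 6 span the membrane, and Sema7a is tethered by a lipid anchor. Plexins are their receptors and act on small GTPases, and neuropilins are co-receptors for most of class 3. Eph receptors are receptor tyrosine kinases that bind ephrins on neighbouring cells, with signals running into both cells. In the developing retina these families set the layers in which neurites run, steer ganglion cell axons at the optic chiasm, and form the gradients that map ganglion cell axons onto the brain.

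FPKM summed to between 282721 and 294055 in each library, and 12331 to 13089 genes reached 1 FPKM. The values are FPKM and not counts, so depth is known only roughly. In 7 libraries the low values of genes with 1 exon pointed most often to a depth of 34000000 to 40000000 fragments, from 8 to 18 values each. AAV2-scramble 3 gave 20000000 to 22000000, from 7 values. That is the lower edge of the range searched, so it does not show a lower depth of this library. Connexin 36 is encoded by Gjd2, at 114009601 to 114013619 on the minus strand of GRCm38 chromosome 2. Gjd2 had 17.0, 14.0, 14.6 and 16.6 FPKM in AAV2-shCX36 libraries 1 to 4, against 38.7, 35.9, 17.4 and 18.2 FPKM in AAV2-scramble libraries 1 to 4. Its groups did not overlap, and its log2(FPKM + 1) difference was -0.70 (adjusted p = 0.148 in limma), -0.19 without AAV2-scramble 1 and 2 (adjusted p = 0.245) and -1.21 without AAV2-scramble 3 and 4 (adjusted p = 0.000830). The libraries hold transcripts of many retinal cells beside ganglion cells: all 7 rod and all 6 cone markers examined averaged at least 1 FPKM. The 8 ganglion cell markers summed to 2466 to 2657 FPKM in AAV2-shCX36 against 1454 to 2562 FPKM in AAV2-scramble. In such bulk RNA, fewer cells of a type and less RNA per cell cannot be told apart. AAV2-scramble 1 and 2 stood apart from the other libraries, with summed microglia markers of 699 and 666 FPKM, against 342 and 155 in AAV2-scramble 3 and 4. Summed bipolar cell markers were 355 and 356 FPKM in AAV2-scramble 1 and 2, against 115 and 127 in AAV2-scramble 3 and 4. The 6 lens markers, of which 2 averaged at least 1 FPKM, summed to 120 and 259 FPKM in AAV2-shCX36 1 and 4. Their sums were 11.3 and 16.0 FPKM in AAV2-shCX36 2 and 3, and 0.514 to 14.3 FPKM in AAV2-scramble. AAV2-shCX36 1 and 4 are also left out together in an alternative fit. The guidance genes called only when a pair of controls was left out are given with and without that pair.

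The guidance families differed little between the groups as a set. Of 45 tested genes 1 rose, Sema6b, and none fell in limma at a Benjamini-Hochberg adjusted p under 0.05, where 4.76% of all 12858 tested genes were called (2.24% higher and 2.52% lower). An unadjusted p under 0.05 was reached by 10 of the 45, or 22.2%, against 22.6% of all tested genes. The groups did not overlap in 6 of the 45, which were Sema6b, Sema4a, Efna5 and Efnb2 on the higher side and Sema3f and Plxnb1 on the lower, against 15.9% of all tested genes (8.85% higher and 7.05% lower). The share called was 2.22%, below the 4.76% of all genes, and the other shares were close to theirs. The log2 difference was above 0 in 25 of 45 (52.4% of all tested genes) and the median was 0.02, beside 0.01 over all genes. All 53 genes together summed to 347 ± 9.12 FPKM in AAV2-shCX36 and 349 ± 36.9 FPKM in AAV2-scramble (SD, n = 4 each).

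With all 8 libraries kept, the precision set an upper bound on most of these differences. The 95% interval of the log2 difference lay within a 2-fold change either way for 44 of 45 genes, as it did for 93.5% of all tested genes. The exception was Plxnb2, whose interval ran from -1.06 to -0.03. This bound was not worked out for the fits with controls left out, where some differences were larger. Plxnd1 had a log2 difference of 0.83 ± 0.13 (SE) without AAV2-scramble 1 and 2. Epha7 had -0.83 ± 0.16 (SE) without AAV2-scramble 3 and 4. A log2 difference is the mean log2(FPKM + 1) of AAV2-shCX36 less that of AAV2-scramble, a scale that understates changes of low genes.

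**Figure D1:**
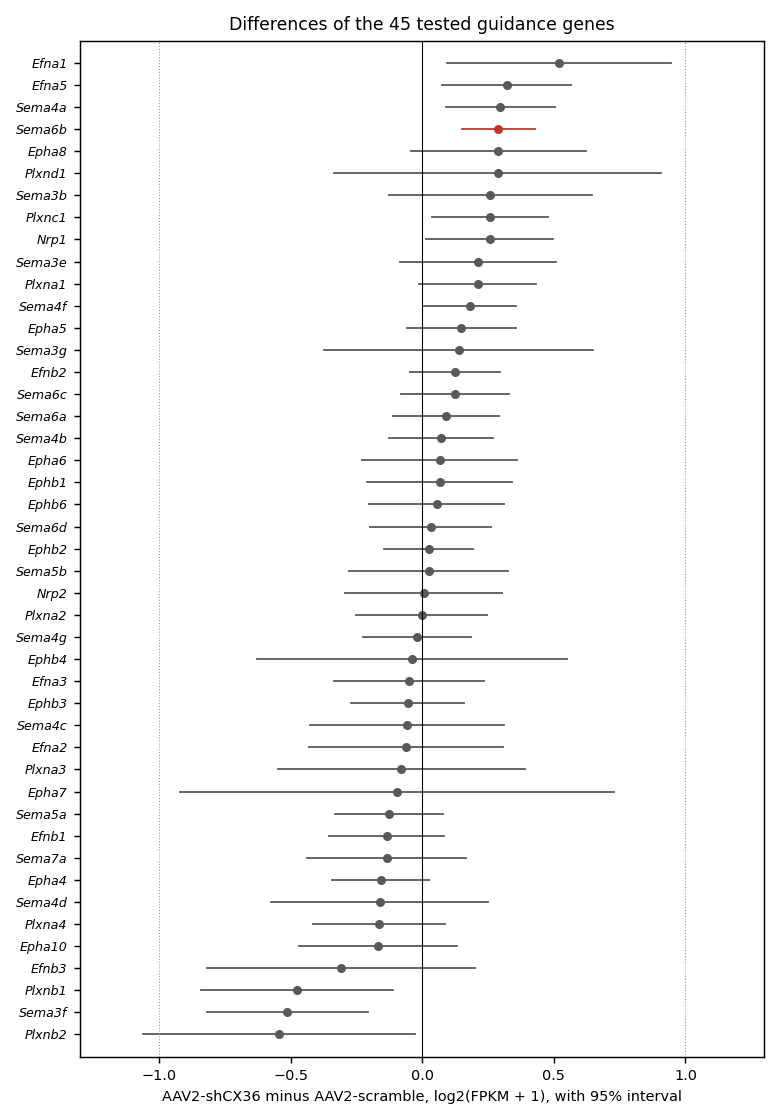
Difference in mean log2(FPKM + 1), AAV2-shCX36 less AAV2-scramble (x axis), of the 45 tested guidance genes (y axis, ordered by size), with 95% intervals from limma and n = 4 libraries a group; dotted lines mark a 2-fold change. Sema6b, at 0.29, is the only gene past the adjusted threshold (red), and the interval of Plxnb2 alone crosses a dotted line.

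Sema6b, a membrane-spanning class 6 semaphorin that binds plexin A4, was the member that rose. Its level was 21.8, 22.5, 20.8 and 19.8 FPKM in AAV2-shCX36 libraries 1 to 4, against 17.0, 16.3, 17.4 and 18.1 FPKM in AAV2-scramble libraries 1 to 4. Every AAV2-shCX36 library lay above every AAV2-scramble library, and the controls lay between 16.3 and 18.1 FPKM. The means were 21.2 ± 1.17 and 17.2 ± 0.750 FPKM (SD, n = 4 each), a log2 difference of 0.29 ± 0.06 (SE) with an adjusted p of 0.0323 in limma, or a 1.22-fold change. The difference was between 0.25 and 0.33 in all 21 alternative settings. The adjusted p passed 0.05 in 9 of them and ranged from 0.0141 to 0.178. It was 0.105, 0.110 and 0.0836 without AAV2-shCX36 1, 2 or 3, and 0.0717, 0.0564 and 0.0721 without AAV2-scramble 1, 2 or 3, all in limma. Scaling by median ratios gave 0.0626 and quantile normalization 0.0560. Leaving out any 1 of these 6 libraries thus ended the call. The share of all genes called also moved with the setting. It was 4.65% and 4.79% with pseudocounts of 0.1 and 0.5, 4.62% with median-of-ratios scaling, 5.11% with quantile normalization and 4.78% after rescaling each library to one total. With no filter it was 1.25%, with a filter of 5 FPKM 6.01%, without the variance trend 3.84%, with robust variances 4.78% and with the replicate number as a block 1.28%. It was 1.4%, 1.33%, 1.64% and 2.49% without AAV2-shCX36 1, 2, 3 or 4, and 3.72%, 3.26%, 1.89% and 9.03% without AAV2-scramble 1, 2, 3 or 4. Leaving out AAV2-shCX36 1 and 4 together gave 0.75%.

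The sequence just before the annotated start of Sema6b (GRCm38 chromosome 17, 56123085 to 56140343, minus strand) is shown with the same window of Sema6c and Sema6d, of the same class, because Sema6b alone of these was called; Sema6a, also of class 6, is not shown. The windows are the 120 bases before the first RefSeq start listed for each gene on GRCm38.p6, namely chr17:56140344-56140463 on the minus strand, chr3:95160300-95160419 on the plus strand and chr2:124089849-124089968 on the plus strand. The Sema6b and Sema6d windows abut the GENCODE vM21 gene start. The Sema6c window ends at 95160419, short of the GENCODE vM21 start of that gene at 95160457. Capitals mark GGGCGG, the GC box.
Sema6b: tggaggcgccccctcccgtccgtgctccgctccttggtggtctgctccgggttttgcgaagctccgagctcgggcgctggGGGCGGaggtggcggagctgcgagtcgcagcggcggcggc
Sema6c: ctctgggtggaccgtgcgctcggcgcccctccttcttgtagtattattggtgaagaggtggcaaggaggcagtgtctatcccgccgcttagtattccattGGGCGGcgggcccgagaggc
Sema6d: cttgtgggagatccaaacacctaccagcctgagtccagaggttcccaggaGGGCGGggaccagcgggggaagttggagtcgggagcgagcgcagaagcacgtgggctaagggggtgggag
All 3 windows held 1 GC box, searched on both strands, as did 26.5% of 32851 promoter windows of this length. CCAAT, searched on both strands, was found in Sema6c alone of the 3, with 2 matches of which the one nearer the start shares 2 bases with the GC box, and in 21.3% of all windows. TATAAA, the TATA box, was in none of the 3 and in 6.34% of all windows. The GC content was 75.0% in Sema6b, 61.7% in Sema6c and 65.0% in Sema6d. These letters describe the windows only, since no measurement here shows which start was used; Sema6b, Sema6c and Sema6d have 2 listed starts each.

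The other members of classes 5 to 7 did not pass. Sema6c had 8.92 ± 0.987 FPKM in AAV2-shCX36 and 8.09 ± 0.649 FPKM in AAV2-scramble (log2 0.12 ± 0.09, adjusted p = 0.446). Sema6a, which with plexin A4 and plexin A2 sorts neurites into sublayers of the mouse inner plexiform layer, had 3.96 ± 0.151 against 3.67 ± 0.427 FPKM, and Sema6d, a plexin A1 ligand, had 2.27 ± 0.286 against 2.19 ± 0.224 FPKM. Sema5a and Sema5b keep inner retinal neurites out of the outer retina in mice. Sema5a had 3.25 ± 0.229 FPKM in AAV2-shCX36 and 3.64 ± 0.394 in AAV2-scramble, and Sema5b had 1.91 ± 0.386 and 1.86 ± 0.366 FPKM. Sema7a, the lipid-anchored ligand of plexin C1 and integrins, had the highest mean level of all 53 genes. It had 21.4, 19.98, 21.5 and 25.0 FPKM in AAV2-shCX36 libraries 1 to 4, against 27.0, 30.3, 21.1 and 19.6 FPKM in AAV2-scramble libraries 1 to 4. The groups overlapped, with AAV2-scramble 1 and 2 above all other libraries (log2 -0.14 ± 0.13, adjusted p = 0.583 in limma). Its difference was 0.10 without AAV2-scramble 1 and 2 (adjusted p = 0.536) and -0.37 without AAV2-scramble 3 and 4 (adjusted p = 0.0251).

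Among the secreted class 3 semaphorins Sema3f came closest to the threshold. Sema3f, which repels axons through neuropilin 2, had 15.3, 12.5, 13.9 and 13.7 FPKM in AAV2-shCX36 libraries 1 to 4, against 20.4, 26.7, 18.9 and 16.0 FPKM in AAV2-scramble libraries 1 to 4. All AAV2-shCX36 libraries lay below all AAV2-scramble libraries, with the lowest control, AAV2-scramble 4, only slightly above the highest AAV2-shCX36 library. The log2 difference was -0.51 ± 0.14 (SE) with an adjusted p of 0.0671 in limma. It passed after median-of-ratios scaling (0.0443), after quantile normalization (0.04996), without AAV2-scramble 4 (0.0247) and without AAV2-scramble 3 and 4 (0.00563). Leaving out AAV2-scramble 1 and 2 gave a difference of -0.31, with an adjusted p of 0.0892.

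Sema3e, which ganglion cells of the developing mouse retina release toward plexin D1 on vessels, had 10.3 ± 1.41 FPKM in AAV2-shCX36 and 8.81 ± 1.49 FPKM in AAV2-scramble (log2 0.21 ± 0.13, adjusted p = 0.364 in limma). Sema3b had 1.43 ± 0.347 against 1.04 ± 0.422 FPKM and Sema3g, an artery-linked ligand, 1.20 ± 0.353 against 1.05 ± 0.609 FPKM. The class ranged over more than an order of magnitude in level, from Sema3f at a mean of 17.2 FPKM over all libraries to Sema3d at 0.241 FPKM.

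No class 4 semaphorin passed. Sema4a, without which photoreceptors degenerate in mice, had 5.59, 5.78, 4.43 and 5.66 FPKM in AAV2-shCX36 libraries 1 to 4, against 3.84, 4.39, 4.20 and 4.23 FPKM in AAV2-scramble libraries 1 to 4. Its groups did not overlap, but AAV2-shCX36 3 lay close to the controls (log2 0.30 ± 0.09, adjusted p = 0.106 in limma). In the same libraries 5 of 7 rod markers fell, and these markers summed to 758 to 1099 FPKM in AAV2-shCX36 against 1178 to 1745 FPKM in AAV2-scramble, with none at 0; the part of rods in the Sema4a value was not tested. Sema4f had 7.52, 7.32, 7.87 and 7.30 FPKM in AAV2-shCX36 libraries 1 to 4, against 6.59, 5.92, 6.15 and 7.36 FPKM in AAV2-scramble libraries 1 to 4. AAV2-scramble 4 overlapped the AAV2-shCX36 libraries (log2 0.18 ± 0.08, adjusted p = 0.202).

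Sema4g was the most abundant of class 4, with 18.6, 19.6, 16.3 and 19.6 FPKM in AAV2-shCX36 libraries 1 to 4, against 20.2, 21.0, 17.5 and 16.7 FPKM in AAV2-scramble libraries 1 to 4. The groups overlapped widely (log2 -0.02 ± 0.09, adjusted p = 0.918 in limma, 95% interval -0.23 to 0.18). Sema4d, the ligand of plexin B1 on neurons and glia and of Cd72 on lymphocytes, had 7.54 ± 0.221 FPKM in AAV2-shCX36 and 8.85 ± 2.73 FPKM in AAV2-scramble (adjusted p = 0.638). Its controls ran from 5.48 FPKM in AAV2-scramble 4 to 11.7 FPKM in AAV2-scramble 2, on both sides of the AAV2-shCX36 libraries. For Sema4d the log2 difference was 0.17 with AAV2-scramble 1 and 2 left out (adjusted p = 0.449) and -0.49 with AAV2-scramble 3 and 4 left out (adjusted p = 0.00592). Sema4b and Sema4c had log2 differences of 0.07 and -0.06 (adjusted p = 0.661 and 0.872).

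**Figure D2:**
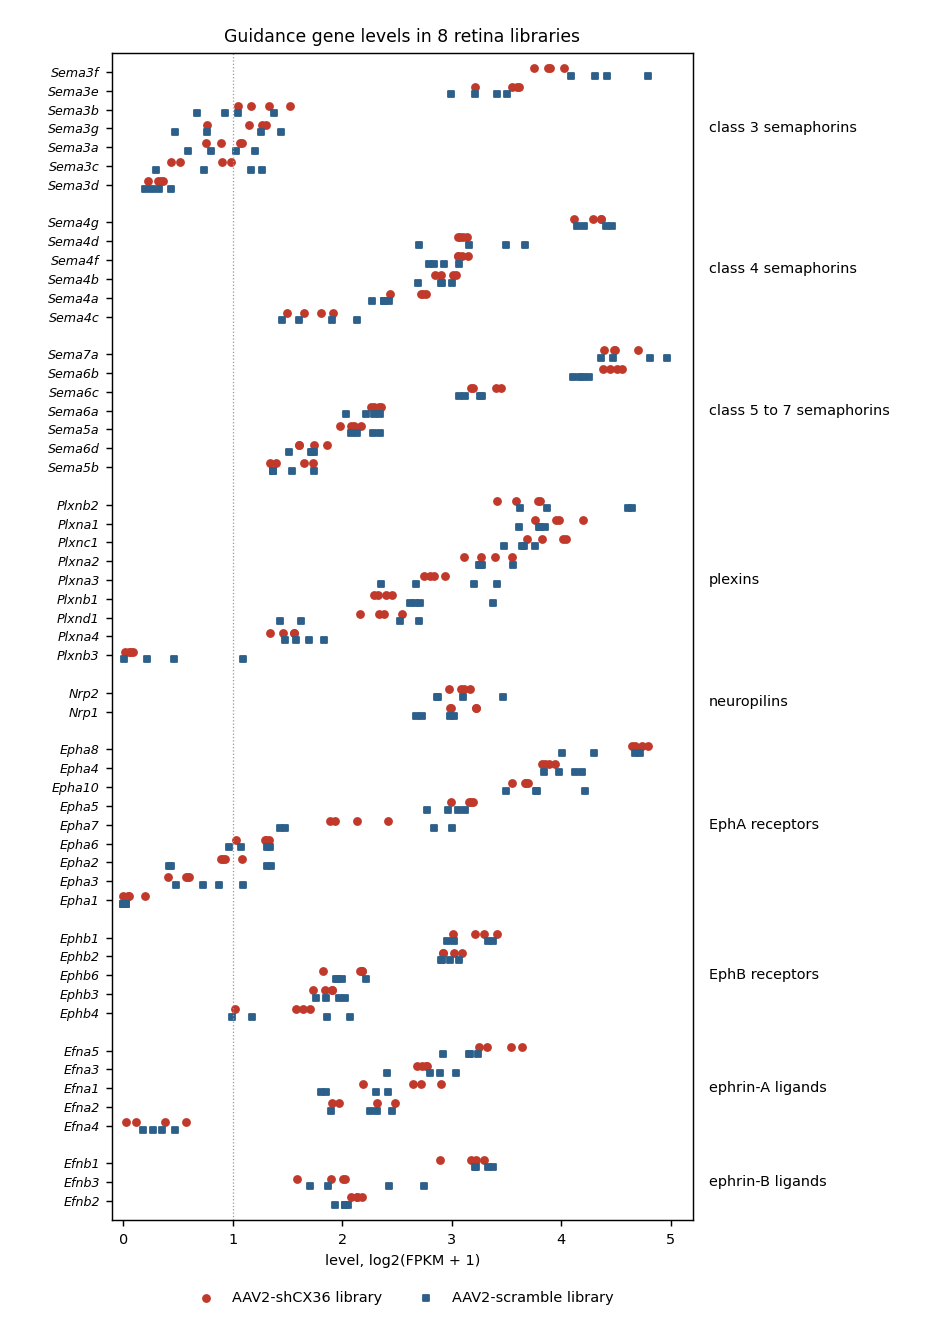
Level in log2(FPKM + 1) (x axis) of all 53 guidance genes (y axis, by family and then by mean level) in each AAV2-shCX36 library (red circles) and each AAV2-scramble library (blue squares); the dotted line marks 1 FPKM. Sema7a and Epha8 are the highest, 8 genes have a mean under 1 FPKM, and Sema6b and Sema3f are among the genes in which the colours separate.

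No plexin passed, and the largest differences lay in the B subfamily. Plxnb2, a receptor of class 4 semaphorins needed for neuronal migration in mice, had 13.0, 11.0, 9.65 and 12.8 FPKM in AAV2-shCX36 libraries 1 to 4, against 23.5, 24.1, 13.6 and 11.4 FPKM in AAV2-scramble libraries 1 to 4. AAV2-scramble 1 and 2 were the high libraries, and AAV2-scramble 4 lay within the AAV2-shCX36 range. Its log2 difference was -0.54 ± 0.23 (adjusted p = 0.202 in limma), -0.10 without AAV2-scramble 1 and 2 (adjusted p = 0.666) and -0.98 without AAV2-scramble 3 and 4 (adjusted p = 0.00190). Plxnb1, the high-affinity Sema4d receptor, had 4.49, 3.90, 4.27 and 4.01 FPKM in AAV2-shCX36 libraries 1 to 4, against 5.16, 9.39, 5.55 and 5.33 FPKM in AAV2-scramble libraries 1 to 4. The groups did not overlap, and AAV2-scramble 2 was well above the other controls (log2 -0.48 ± 0.16, adjusted p = 0.132). Without AAV2-scramble 2 the log2 difference of Plxnb1 was -0.30 (adjusted p = 0.0796). It was -0.32 with AAV2-scramble 1 and 2 left out (adjusted p = 0.0675) and -0.63 with AAV2-scramble 3 and 4 left out (adjusted p = 0.0380). An antisense gene model shares 257 exon bases with Plxnb1, and its fragments cannot be separated if counting ignored strand.

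Summed microglia, oligodendrocyte and bipolar cell markers were highest in the same control libraries as Plxnb2, AAV2-scramble 1 and 2. The 7 bipolar cell markers summed to 125 to 181 FPKM in AAV2-shCX36. Their sums were 355 and 356 FPKM in AAV2-scramble 1 and 2, against 115 and 127 FPKM in AAV2-scramble 3 and 4. Among them Prkca and Lrit3 did not divide the controls in this way. Plxnb1 was highest in AAV2-scramble 2, at 9.39 FPKM, and lowest among the controls in AAV2-scramble 1, at 5.16 FPKM. The 7 microglia markers, all of which averaged at least 1 FPKM and none of which was at 0 throughout, summed to 171 to 270 FPKM in AAV2-shCX36 against 155 to 699 FPKM in AAV2-scramble. The 7 oligodendrocyte markers, of which 6 averaged at least 1 FPKM, summed to 10.6 to 12.1 FPKM in AAV2-shCX36, against 56.7 and 180 FPKM in AAV2-scramble 1 and 2 and 11.5 and 11.6 FPKM in AAV2-scramble 3 and 4. Plxnb3, a plexin of oligodendrocyte lineage cells, was low throughout, with 0.0340, 0.00863, 0.0482 and 0.0604 FPKM in AAV2-shCX36 libraries 1 to 4, against 0.380, 1.13, 0.163 and 0.00416 FPKM in AAV2-scramble libraries 1 to 4. Its highest value was in AAV2-scramble 2, the library with the most oligodendrocyte transcript. Summed Müller glia markers separated the groups as Plxnb1 and Sema3f did, and so did the summed rod, cone and horizontal cell markers. Among the single markers of these lists, Dkk3, Sag, Opn1mw, Onecut1, Onecut2 and Gja10 overlapped between the groups. All 6 Müller glia markers averaged at least 1 FPKM, none was at 0 throughout and 4 fell. They summed to 203 to 323 FPKM in AAV2-shCX36, against 566, 745, 441 and 575 FPKM in AAV2-scramble libraries 1 to 4, with the highest control in AAV2-scramble 2. The 7 rod markers summed to 758 to 1099 FPKM in AAV2-shCX36 against 1178 to 1745 FPKM in AAV2-scramble. The 6 cone markers summed to 1568 to 2427 against 2714 to 4150 FPKM, and the 5 horizontal cell markers to 70.4 to 101 against 117 to 125 FPKM. The part of these cells in the plexin and Sema3f values was not tested.

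Plexins A, C and D showed smaller or less even differences. Plxnc1, the Sema7a receptor, had 11.8, 15.2, 15.5 and 13.2 FPKM in AAV2-shCX36 libraries 1 to 4, against 11.5, 10.1, 12.6 and 11.6 FPKM in AAV2-scramble libraries 1 to 4. The groups overlapped at AAV2-shCX36 1 (log2 0.26 ± 0.10, adjusted p = 0.165 in limma). Plxna1 had 14.8 ± 1.99 against 12.6 ± 0.965 FPKM (adjusted p = 0.242; an antisense gene model shares 970 of its exon bases), Plxna2 9.14 ± 1.31 against 9.13 ± 1.08 FPKM (adjusted p = 0.995), and Plxna4, the Sema6a and Sema6b receptor, 1.80 ± 0.199 against 2.14 ± 0.342 FPKM (adjusted p = 0.410). Plxna3, which pairs with neuropilin 2 in Sema3f signalling, had 5.73, 5.97, 6.65 and 6.13 FPKM in AAV2-shCX36 libraries 1 to 4, against 8.23, 9.63, 5.37 and 4.10 FPKM in AAV2-scramble libraries 1 to 4. The controls enclosed the AAV2-shCX36 values from both sides (adjusted p = 0.856). For Plxna3 the log2 difference was 0.32 with AAV2-scramble 1 and 2 left out (adjusted p = 0.120) and -0.48 with AAV2-scramble 3 and 4 left out (adjusted p = 0.0105).

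Neither neuropilin passed. Nrp1, the co-receptor of Sema3a and of vascular endothelial growth factor, had 8.33, 8.36, 6.95 and 6.93 FPKM in AAV2-shCX36 libraries 1 to 4, against 7.12, 6.89, 5.62 and 5.38 FPKM in AAV2-scramble libraries 1 to 4. Each group held a higher and a lower pair of libraries, and the lower AAV2-shCX36 pair overlapped the higher controls (log2 0.26 ± 0.11, adjusted p = 0.199 in limma). Nrp2, the Sema3f co-receptor, had 7.65, 7.46, 7.99 and 6.86 FPKM in AAV2-shCX36 libraries 1 to 4, against 10.1, 7.57, 6.33 and 6.30 FPKM in AAV2-scramble libraries 1 to 4. The controls spread on both sides of the AAV2-shCX36 values (log2 0.01 ± 0.13, adjusted p = 0.983, 95% interval -0.29 to 0.30).

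**Figure D3:**
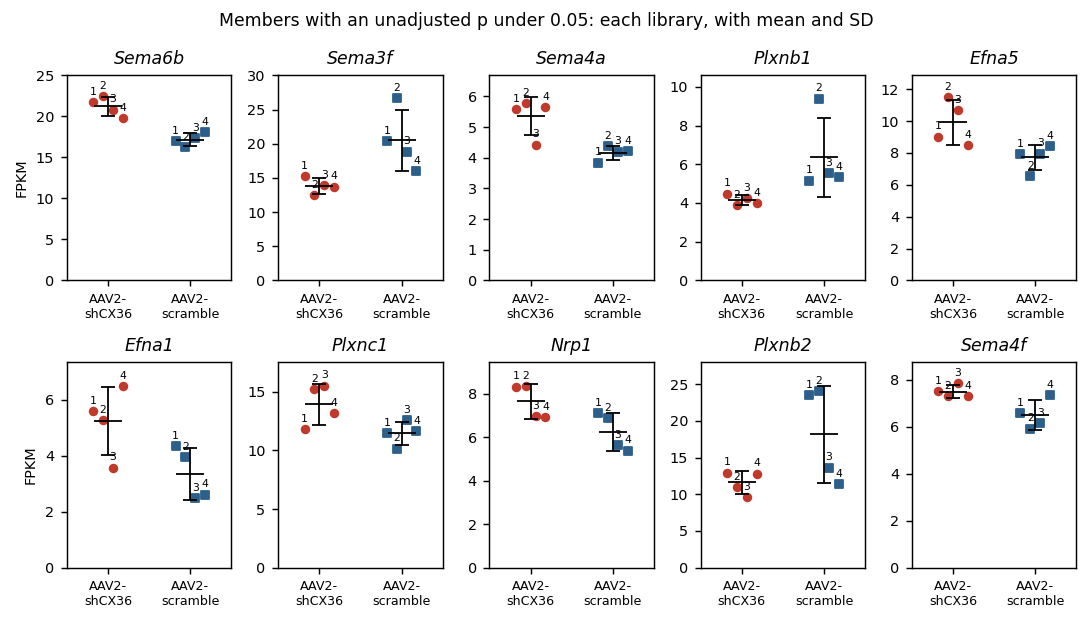
FPKM (y axes, from 0) of the 10 guidance genes with an unadjusted p under 0.05, in AAV2-shCX36 libraries (red circles, left) and AAV2-scramble libraries (blue squares, right) numbered 1 to 4, with the mean and SD of n = 4. Sema6b, Sema3f, Sema4a, Plxnb1 and Efna5 have groups that do not overlap, and in Plxnb2 the controls 1 and 2 lie far above controls 3 and 4.

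None of the 11 tested Eph receptors passed, and none had an unadjusted p under 0.05. Epha8, a receptor of A-class ephrins, was the most abundant, with 24.1, 24.5, 25.6 and 26.8 FPKM in AAV2-shCX36 libraries 1 to 4, against 24.6, 25.4, 18.7 and 15.1 FPKM in AAV2-scramble libraries 1 to 4. AAV2-scramble 1 and 2 lay within the AAV2-shCX36 range and AAV2-scramble 3 and 4 below it (log2 0.29 ± 0.15, adjusted p = 0.280 in limma). Epha8 had a log2 difference of 0.56 when AAV2-scramble 1 and 2 were left out (adjusted p = 0.0118) and of 0.01 when AAV2-scramble 3 and 4 were left out (adjusted p = 0.890). Epha4, which binds ephrins of both classes, had 13.7 ± 0.496 against 15.4 ± 1.75 FPKM (adjusted p = 0.288), and Epha10, which lacks kinase activity, had 11.6 ± 0.587 against 13.3 ± 3.05 FPKM (adjusted p = 0.488).

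Epha5, Epha6 and Epha7 had log2 differences of 0.15, 0.07 and -0.10 (adjusted p = 0.362, 0.801 and 0.903). Epha7 had the widest interval of the EphA genes, from -0.92 to 0.73. Its level was 4.33, 2.82, 2.70 and 3.39 FPKM in AAV2-shCX36 libraries 1 to 4, against 7.03, 6.16, 1.71 and 1.78 FPKM in AAV2-scramble libraries 1 to 4. All AAV2-shCX36 values fell between the higher and the lower pair of controls. Its log2 difference was 0.64 with AAV2-scramble 1 and 2 left out (adjusted p = 0.0502) and -0.83 with AAV2-scramble 3 and 4 left out (adjusted p = 0.00900).

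With all libraries kept, the 5 EphB receptors had log2 differences between -0.06 and 0.07, the narrowest range of any family here. Ephb1, the receptor that turns ventrotemporal ganglion cell axons away from the midline, had 8.80, 9.66, 8.30 and 7.09 FPKM in AAV2-shCX36 libraries 1 to 4, against 7.12, 6.75, 9.35 and 9.04 FPKM in AAV2-scramble libraries 1 to 4. The groups overlapped over most of their range (log2 0.07 ± 0.12, adjusted p = 0.790 in limma, 95% interval -0.21 to 0.34). Ephb2 had 6.95 ± 0.480 against 6.81 ± 0.426 FPKM, Ephb3 2.60 ± 0.204 against 2.75 ± 0.314 FPKM, and Ephb6, which like Epha10 lacks kinase activity, 3.27 ± 0.485 against 3.10 ± 0.380 FPKM. Ephb4, the receptor of venous endothelium, had 1.85 ± 0.557 FPKM in AAV2-shCX36 and 2.02 ± 1.06 FPKM in AAV2-scramble (95% interval of the log2 difference -0.63 to 0.55). Leaving out AAV2-scramble 1 and 2 moved the Ephb4 difference to 0.40 (adjusted p = 0.269 in limma). Leaving out AAV2-scramble 3 and 4 moved it to -0.48 (adjusted p = 0.107). The EphB genes summed to 23.1 ± 1.33 FPKM in AAV2-shCX36 and 22.7 ± 0.50 FPKM in AAV2-scramble.

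The ephrin-A genes held 2 of the larger positive differences, neither of them called. Efna1, an ephrin that endothelial cells induce under inflammatory cytokines, had 5.59, 5.27, 3.57 and 6.48 FPKM in AAV2-shCX36 libraries 1 to 4, against 4.34, 3.95, 2.49 and 2.61 FPKM in AAV2-scramble libraries 1 to 4. AAV2-shCX36 3 lay among the controls (log2 0.52 ± 0.19, adjusted p = 0.151 in limma). Without AAV2-scramble 1 and 2 the difference was 0.79 (adjusted p = 0.0399), and without AAV2-scramble 3 and 4 the value was 0.25 (adjusted p = 0.319). Efna5, which maps ganglion cell axons in the superior colliculus, had 9.03, 11.5, 10.7 and 8.49 FPKM in AAV2-shCX36 libraries 1 to 4, against 7.91, 6.56, 7.96 and 8.45 FPKM in AAV2-scramble libraries 1 to 4. The groups did not overlap, though AAV2-shCX36 4 and AAV2-scramble 4 were almost equal (log2 0.32 ± 0.11, adjusted p = 0.132). Efna2 and Efna3 had log2 differences of -0.06 and -0.05 (adjusted p = 0.858 and 0.849).

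No ephrin-B gene passed. Efnb1 had 8.84, 8.35, 6.43 and 8.05 FPKM in AAV2-shCX36 libraries 1 to 4, against 9.42, 8.30, 9.03 and 8.26 FPKM in AAV2-scramble libraries 1 to 4. The groups overlapped, and the lowest value was AAV2-shCX36 3 (log2 -0.14 ± 0.10, adjusted p = 0.438 in limma). Efnb2, the ephrin of the chiasm midline and of arterial endothelium, had 3.39 ± 0.127 against 3.02 ± 0.147 FPKM, with groups that did not overlap and a log2 difference of 0.13 ± 0.08 (adjusted p = 0.360). Efnb3, a midline barrier of the spinal cord, had 2.71 ± 0.492 against 3.76 ± 1.60 FPKM (adjusted p = 0.448). Its controls 1 and 2 had 4.39 and 5.71 FPKM and controls 3 and 4 had 2.26 and 2.67 FPKM. Its log2 difference was 0.09 with controls 1 and 2 left out (adjusted p = 0.747) and -0.71 with controls 3 and 4 left out (adjusted p = 0.0145).

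Of the 53 genes 8 had a mean under 1 FPKM and were not tested in the main model. Just above that level were Sema3g at a mean of 1.13 FPKM over all libraries, Sema3b at 1.23 FPKM and Epha6 at 1.32 FPKM, and just under it Epha2 at 0.932 FPKM and Sema3a, the classic collapsing factor of growth cones, at 0.921 FPKM. Sema3c, Epha3, Sema3d, Efna4, Plxnb3 and Epha1 had means between 0.0311 and 0.770 FPKM. Epha1 was listed at 0 in 3 of the 8 libraries. Fitted with no filter on level, none of the 8 passed in limma, and the smallest adjusted p among them was 0.401, for Epha3 (0.458 ± 0.0907 against 0.755 ± 0.310 FPKM).

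Many guidance genes followed the division among the control libraries. In 23 of the 45 tested genes (51.1%) AAV2-scramble 1 and 2 were both above AAV2-scramble 3 and 4, as in 35.3% of all tested genes. They were both below in 11 (24.4%), as in 24.8% of all tested genes. Calls followed the control libraries kept. With AAV2-scramble 1 and 2 left out, Efna1, Epha8 and Plxnd1 were higher in AAV2-shCX36 and none was lower, 3 of 45 where 7.51% of all genes were called. With AAV2-scramble 3 and 4 left out, Sema6b was higher and Sema3f, Sema4d, Sema7a, Plxna3, Plxnb1, Plxnb2, Epha7 and Efnb3 were lower, 9 of 46 where 26.7% of all genes were called. No guidance gene was called in both of these fits.

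Vessel markers moved with part of this division. Plxnd1, the Sema3e receptor of endothelium, had 4.21, 4.04, 3.47 and 4.84 FPKM in AAV2-shCX36 libraries 1 to 4, against 4.75, 5.5, 2.07 and 1.69 FPKM in AAV2-scramble libraries 1 to 4. AAV2-scramble 3 and 4 were the low libraries (log2 0.29 ± 0.28, adjusted p = 0.568 in limma). Without AAV2-scramble 1 and 2 the difference was 0.83 (adjusted p = 0.0108), and with AAV2-scramble 3 and 4 left out it was -0.26 (adjusted p = 0.154). The 6 endothelial markers, all of which averaged at least 1 FPKM and none of which was at 0 throughout, summed to 69.1, 57.4, 52.6 and 115 FPKM in AAV2-shCX36 libraries 1 to 4, against 93.4, 121, 33.0 and 18.6 FPKM in AAV2-scramble libraries 1 to 4. AAV2-scramble 3 and 4 were thus lowest in endothelial markers, in Plxnd1 and in Efna1 alike. The part of vessels in these values was not tested.

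**Figure D4:**
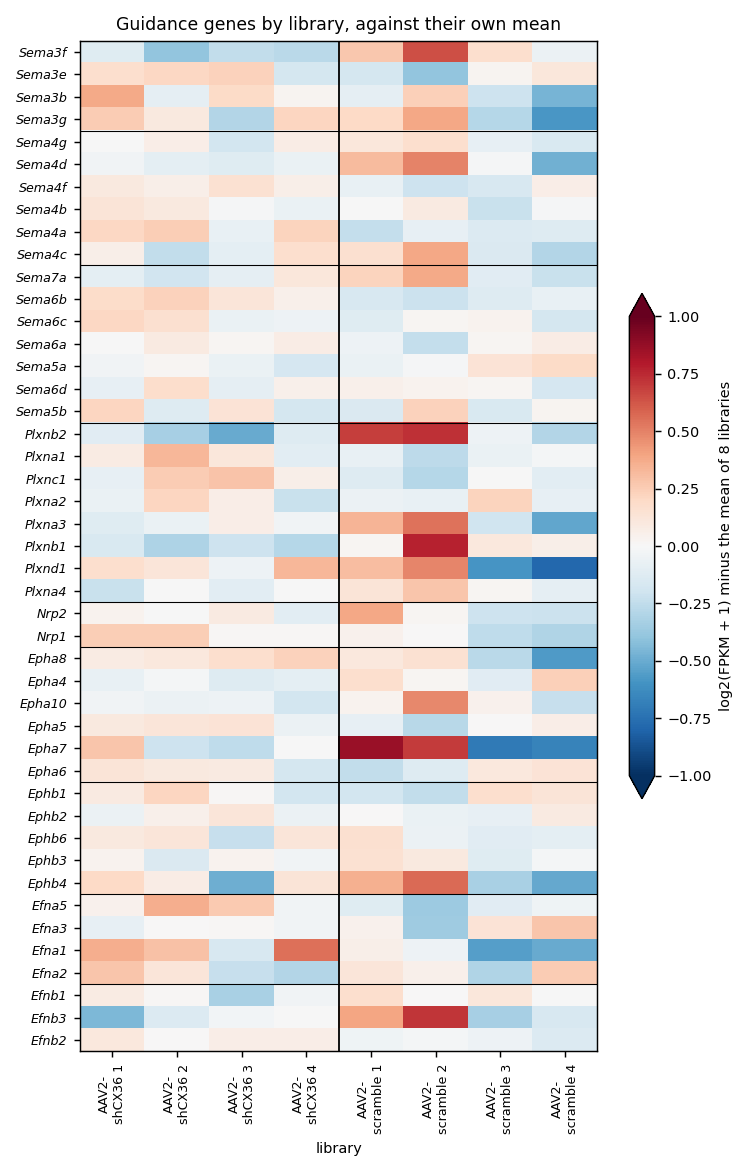
Log2(FPKM + 1) of each tested guidance gene (rows, by family) in each library (columns, AAV2-shCX36 left of the line and AAV2-scramble right of it), minus that gene's mean over 8 libraries; red is above and blue below the mean. Most cells of the AAV2-shCX36 columns are pale, with exceptions such as Efna1 and Plxnb2, whereas Plxnb2, Epha7, Plxnd1 and Efnb3 are red in AAV2-scramble 1 and 2 and pale or blue in AAV2-scramble 3 and 4.

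Genes that act with these ligands and receptors gave 3 calls among 86 tested, all higher, beside the 4.76% of all genes called. Of 32 semaphorin and plexin partners 2 rose and none fell, with a median log2 difference of 0.07. Cd72, a lymphocyte receptor of Sema4d, rose to 5.33, 4.36, 4.28 and 5.58 FPKM in AAV2-shCX36 libraries 1 to 4, against 1.40, 2.57, 1.26 and 1.26 FPKM in AAV2-scramble libraries 1 to 4. All AAV2-shCX36 libraries lay above all controls (log2 1.19 ± 0.16, adjusted p = 0.00701 in limma), and the call held with each single library left out (highest adjusted p 0.0298) but not with AAV2-shCX36 1 and 4 left out together (log2 1.05, adjusted p = 0.108). The 4 T cell markers, none of which averaged 1 FPKM or was at 0 throughout, summed to 0.627 to 1.44 FPKM in AAV2-shCX36 against 0.148 to 0.301 FPKM in AAV2-scramble. Cd3e and Cd3g separated the groups, whereas Cd8a and Cd4 overlapped. No marker list of B cells or of other lymphocytes was examined, so these markers do not show which cells held Cd72. The part of lymphocytes in the Cd72 value was not tested. Cd72 shares 1423 exon bases with Tesk1 on the opposite strand, so some fragments may belong to that gene. Mical2, of the MICAL family of actin-disassembling enzymes that act with plexins in flies, rose to 10.7 ± 0.493 FPKM, against 8.10 ± 0.510 FPKM in AAV2-scramble (log2 0.37 ± 0.07, adjusted p = 0.0213). It lost the call without AAV2-shCX36 1, 2 or 3 or AAV2-scramble 3 (adjusted p = 0.0632, 0.0737, 0.0705 and 0.0599).

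Of 31 Eph and ephrin partners 1 rose and none fell, with a median of -0.0023. Src, the kinase that works downstream of Eph receptors and ephrins, rose to 23.4, 24.5, 23.7 and 22.8 FPKM in AAV2-shCX36 libraries 1 to 4, against 19.1, 17.3, 18.6 and 20.7 FPKM in AAV2-scramble libraries 1 to 4. The groups did not overlap (log2 0.31 ± 0.06, adjusted p = 0.0314 in limma). Src lost the call when any single AAV2-shCX36 library, or AAV2-scramble 1 or 3, was left out (adjusted p between 0.0624 and 0.110). Of 23 netrin, Slit, Robo, Unc5 and related guidance genes none passed in limma and 4 had an unadjusted p under 0.05, with a median of 0.07. The smallest p among them belonged to Ntng2, a membrane-anchored netrin, at 43.5 ± 3.29 against 58.7 ± 13.2 FPKM (adjusted p = 0.143), and Ptch1, the Hedgehog receptor, at 7.84 ± 0.564 against 11.4 ± 3.2 FPKM (adjusted p = 0.153). The 3 calls were 1, Cd72, without AAV2-shCX36 1, 2 or 3 or AAV2-scramble 3, and 9 without AAV2-scramble 4. Of all genes, 1.33% to 1.89% were called in the former fits and 9.03% in the latter.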

How the data were processed

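Total RNA from mouse retina was sequenced as 150 bp paired-end reads, per the labels' protocols. The values are FPKM, deposited by the authors for 24860 symbols and 8 libraries; the submitters' processing notes name fastp, HISAT2, HTSeq, R 3.2.0 and DESeq2 with GRCm38 and mm10. Annotation and strand setting are not given in the sources used here. With FPKM alone, no counting interval is given and no count model was run. Columns were matched to samples by name, and groups came from the titles. limma 3.58.1 (R 4.3.3, lmFit and eBayes with trend) was fitted on log2(FPKM + 1) over 12858 genes averaging 1 FPKM or more. Benjamini-Hochberg adjustment was over all of them. On simulated data with independent noise, limma recovered 76% of 1.5-fold changes, and 10 of its 188 calls were unchanged genes. The simulated controls held no division like that of AAV2-scramble 1 and 2 from 3 and 4, so it does not show how the model behaves with one. The p-values cover the spread among libraries, which may be partly technical.

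The members and lists were chosen with earlier results of these data known. Full values are given for called members, for those with an unadjusted p under 0.05, for the highest member of each family, and for called partner genes or otherwise the smallest p of a list. Epha7, Plxna3, Plxnb3 and Plxnd1 were added after their values were seen. Positions are GENCODE vM21 (GRCm38; all 53 symbols matched), and promoters are RefSeq (47 matched). Alternatives changed the pseudocount, scaling, filter, variance model, replicate block or libraries. Python 3.11.15 made the tables and figures.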

Additional observations from a re-analysis of the deposited data

Results flagged for a closer look

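In 8 of 100 groups of 4 libraries looked at (45 tested guidance genes and 5 partner genes, in each of the groups), 1 library lay far from the other 3, by Dixon's 95% limit for the gap over the range. Chance gives about 1 in 20 groups. In AAV2-shCX36, library 4 was low for Epha10, at 10.7 FPKM against 11.8 to 11.9 in the other 3. Library 4 was also low for Epha6, at 1.04 FPKM against 1.45 to 1.52. AAV2-shCX36 library 3 was low for Ephb6, at 2.54 FPKM against 3.47 to 3.54, and for Sema4a, at 4.43 FPKM against 5.59 to 5.78.

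In AAV2-scramble, library 2 was high for Plxnb1, at 9.39 FPKM against 5.16 to 5.55 in the other 3, and for Cd72, at 2.57 FPKM against 1.26 to 1.40. AAV2-scramble library 3 was high for Plxna2, at 10.8 FPKM against 8.52 to 8.67, and library 4 was low for Sema6d, at 1.86 FPKM against 2.27 to 2.35.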

How the results depend on the processing

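The count of 1 guidance gene called higher was 0 with median-of-ratios scaling, quantile normalization, no trend, the replicate block, or AAV2-shCX36 1 and 4 left out together, 0 to 1 with single libraries left out, and 3 without AAV2-scramble 1 and 2. The count of 0 called lower was 1 under either scaling, 0 to 1 with single libraries left out, and 8 without AAV2-scramble 3 and 4; 10 genes had an unadjusted p under 0.05 in limma. The 3 partner calls (lists of 32, 31 and 23 tested genes) were 1 with the block and 1 to 9 with single libraries left out. They were 6 and 24 with AAV2-scramble 1 and 2 or 3 and 4 left out, and 0 with AAV2-shCX36 1 and 4 left out. Of all genes, 1.28% were called with the block and 1.33% to 9.03% with single libraries left out. The share was 7.51% and 26.7% with those control pairs left out, and 0.75% without AAV2-shCX36 1 and 4. The deviations of same-numbered libraries from their group means had correlations of 0.13, -0.30, 0.23 and -0.27. No label says that the numbers pair mice, and these correlations cannot settle whether they do. Under the replicate block Sema6b, Mical2 and Src had adjusted p of 0.143, 0.102 and 0.132 in limma. Differences near 0 changed sign: with single libraries left out they ran from -0.075 to 0.036 for Sema4g, -0.064 to 0.14 for Nrp2 and -0.0057 to 0.14 for Ephb1. Without AAV2-scramble 1 and 2 they were 0.11 for Sema4g, 0.10 for Sema7a and -0.12 for Ephb1, and without AAV2-scramble 3 and 4 -0.20 for Nrp2. Single omissions that turned the sign gave 0.036, 0.012 and 0.031 for Sema4g, -0.0034, -0.022, -0.062 and -0.064 for Nrp2, and -0.0057 for Ephb1. The cause was not tested. All-gene calls were 612, but 311 with no filter and 164 under the block. In all, 21 of the 45 tested genes kept their sign in each of the 20 or 21 alternatives that tested them. The scalings moved the median of all genes by under 0.1. The filter of the main fit left out the 8 genes with a mean under 1 FPKM, and how far depth limits their values was not tested.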
